A study of Mus musculus with 6 samples.

Results

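The genes examined were 9 transcription factor genes of double-positive thymocytes: Tcf3, Tcf12, Id2, Id3, Tcf7, Lef1, Myb, Satb1 and Bcl11b. They were taken by gene name from a table of read counts over 29626 genes, and all 9 were among the 15353 genes with enough counts to test. Double-positive thymocytes are the CD4+CD8+ precursors that rearrange the T cell receptor alpha gene and undergo selection. They were sorted by flow cytometry from 8-week-old mice, and their polyadenylated RNA was sequenced without any stimulation. The 3 KANSL1-deficient mice (Kansl1fl/fl CD4-Cre) carried floxed Kansl1 alleles and Cre expressed from Cd4 regulatory sequence. The 3 control mice (Kansl1fl/fl) were littermates with the same floxed alleles and no Cre, so effects of Cre itself and of Kansl1 loss cannot be told apart. KANSL1 is the scaffold of NSL, a complex around the histone acetyltransferase KAT8. In sorted bulk samples, fewer cells of a type and less RNA per cell cannot be told apart.

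TCF3 (the E2A proteins E12 and E47) and TCF12 (HEB) are E proteins, helix-loop-helix factors that pair with each other and bind E boxes in DNA. ID2 and ID3 have the helix-loop-helix but no DNA-binding region, and they hold E proteins in pairs that cannot bind DNA. At the double-positive stage, E proteins keep up the receptor gene programme, and T cell receptor signals induce Id3 through ERK and EGR factors. TCF-1 (encoded by Tcf7) and LEF-1 are HMG-box factors that act with beta-catenin or TLE corepressors, and MYB is needed for the survival of these cells. SATB1 organises chromatin around the Rag genes and other thymocyte genes, and BCL11B is a zinc finger factor that holds cells in the T lineage.

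Id3 was the gene of the 9 whose transcript level passed the test, and Id2 is its nearest relative among them. The 250 bases before the RefSeq transcription start of each are therefore printed 5′ to 3′ on the gene's strand, from the GRCm38.p6 build, at chr4:136143572-136143821 (plus strand) for Id3 and chr12:25096093-25096342 (minus strand) for Id2. Capitals mark an E box, the letters CANNTG that E proteins recognise, searched on both strands.
Id3: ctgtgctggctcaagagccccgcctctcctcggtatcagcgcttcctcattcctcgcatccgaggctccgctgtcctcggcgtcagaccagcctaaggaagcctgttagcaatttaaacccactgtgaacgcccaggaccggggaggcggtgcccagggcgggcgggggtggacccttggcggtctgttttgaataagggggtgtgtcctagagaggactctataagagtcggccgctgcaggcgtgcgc
Id2: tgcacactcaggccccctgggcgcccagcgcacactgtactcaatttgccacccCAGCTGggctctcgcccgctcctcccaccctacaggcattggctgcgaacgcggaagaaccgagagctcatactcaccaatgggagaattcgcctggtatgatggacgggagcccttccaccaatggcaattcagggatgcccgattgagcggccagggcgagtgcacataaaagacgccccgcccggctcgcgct
The Id2 window held 1 E box, CAGCTG, and the Id3 window held 0. Of all 32851 RefSeq promoter windows of this length, 66.2% held at least 1, as did 11 of the 19 windows of the 9 genes. The EGR motif GCGNGGGCG, searched on both strands, was in neither of these windows and in 4.7% of all windows. G and C made up 62.8% of the bases in each. A missing match says only that these letters are not in this window.

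The libraries held 21850642, 22459830 and 20603137 counts in KANSL1-deficient replicates 1 to 3, and 19361968, 21975201 and 21576009 counts in control replicates 1 to 3. Values below are in this replicate order, as TMM-scaled CPM (reads of a gene scaled to a common library size) unless FPKM, which also divides by gene length, is named. Kansl1 itself was read at 146, 168 and 188 CPM in KANSL1-deficient libraries, against 214, 189 and 230 CPM in control libraries. Without overlap between groups, the difference of -0.33 ± 0.14 (SE) on the log2 scale did not pass the threshold (edgeR adjusted p = 0.171). These counts cover the whole gene, so the deleted exons are not seen separately. Control replicate 3 was the lowest of the 6 libraries for 6 of the 9 genes (Tcf3, Tcf12, Lef1, Myb, Satb1 and Bcl11b). Its mean deviation over the 8 genes other than Id3 was -0.21 on the log2 scale, against 0.02 to 0.06 in the other libraries. All 10 markers of double-positive thymocytes were detected, and their summed level lay between 16397 and 18164 CPM in KANSL1-deficient libraries and between 14011 and 14514 CPM in control libraries. Markers of cells in mitosis also differed. Their sum was 935 to 1082 CPM in KANSL1-deficient libraries and 256 to 406 CPM in control libraries, and 12 of 12 were higher past the threshold (7 to 11 with a library left out). Of the listed markers of double-negative thymocytes, CD8 single-positive cells, B cells, NK or gamma-delta T cells, myeloid, erythroid and thymic epithelial cells, 0 passed in edgeR, with 2 CD8 single-positive markers and 1 myeloid marker at an unadjusted p under 0.05 and 2 CD8 single-positive markers called by DESeq2. The 2 tested CD8 single-positive markers were lower in KANSL1-deficient libraries, with log2 fold changes of -0.69 and -2.27. The sum over the CD8 single-positive list was 15.1 to 18.3 CPM in KANSL1-deficient libraries and 26.1 to 29.0 CPM in control libraries. Ikzf2 passed among 5 tested markers of regulatory T cells, while Foxp3 was near 0, as were the CD4 single-positive markers Zbtb7b and Cd40lg.

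Id3 was higher in KANSL1-deficient thymocytes, and the other 8 genes did not pass the threshold in either direction. Id3 rose 1.84-fold, while the fitted log2 fold changes of the others lay between -0.04 and 0.15. In all, 1 of 9 genes passed in the higher direction and 0 in the lower (quasi-likelihood test of edgeR, p under 0.05 after Benjamini-Hochberg adjustment over all tested genes). Of the 15353 genes tested, 1038 passed (6.76%), of which 591 were higher (3.85% of those tested) and 447 lower (2.91%). A single call among 9 genes cannot be set apart from these shares. DESeq2 and limma-voom each called 1 of the 9, and 1 had an unadjusted p under 0.05. The groups did not overlap in CPM for Id3 and Tcf7, 2 of 9 genes, beside 28.5% of all tested genes. In the authors' deposited table, Id3 had a fold change of 1.84 and an adjusted p of 1.07e-04, and the other 8 genes had adjusted p-values from 0.471 to 0.952, where 14.9% of 13543 genes were under 0.05.

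**Figure D1:**
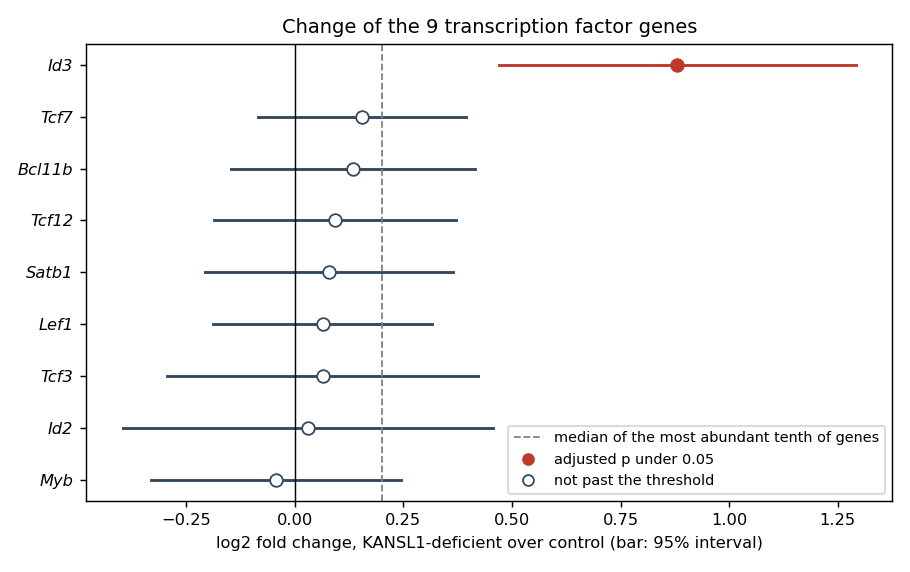
Log2 fold change of each gene, KANSL1-deficient over control, on the x axis, with bars for the 95% interval of the edgeR fit and a dashed line at the median of the 1536 most abundant tested genes (0.20). Id3 lies at 0.88 with an interval from 0.47 to 1.29, and the intervals of the other 8 genes cross 0.

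For the 8 genes other than Id3, the 95% intervals together spanned 0.760-fold to 1.37-fold, both bounds being those of Id2. The median log2 fold change of the 9 genes was 0.08, beside -0.02 over all tested genes. The fold changes of 8 of the 9 genes were above 0 with TMM scaling, while 6 of these 8 (Tcf3, Tcf12, Id2, Lef1, Satb1 and Bcl11b) were below 0 with scaling by library totals, which moved the median of all genes to -0.17. Among called genes the share that was higher was 56.9% with TMM and 27.7% with library totals. All of the 9 genes but Id2 belong to the 1536 most abundant tested genes, whose median log2 fold change was 0.20 and of which 203 (13.2%) were higher and 4 lower.

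Levels were compared between genes per length, in the deposited FPKM. Tcf7 had the highest level, with a mean of 1749 FPKM over the 6 libraries and a range of 1613 to 1970. Id3 followed at 277 FPKM (150 to 360) and Satb1 at 125 FPKM (107 to 145). These first 3 genes stood clear of each other and of the next gene in every library. Bcl11b at 86.6 FPKM (75.3 to 100.4), Myb at 85.8 FPKM (77.9 to 107) and Lef1 at 72.2 FPKM (66.0 to 84.3) overlapped with their neighbours, and Bcl11b and Myb changed places between the groups. Lef1 stood clear of Tcf3, which averaged 37.7 FPKM (30.1 to 44.0). Id2 at 29.5 FPKM (23.8 to 37.0) and Tcf12 at 29.3 FPKM (25.4 to 32.0) came last, overlapped with each other, and also changed places between the groups. In FPKM the helix-loop-helix genes thus held both the second place (Id3) and the last 3. This order depends on the implied gene lengths, which were 15.5 kb for Tcf12, 4.04 kb for Tcf3, 2.44 kb for Id2 and 1.79 kb for Id3. Without division by length, Tcf12 averaged 471 CPM in KANSL1-deficient and 442 CPM in control libraries, above Tcf3 and Id2.

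**Figure D2:**
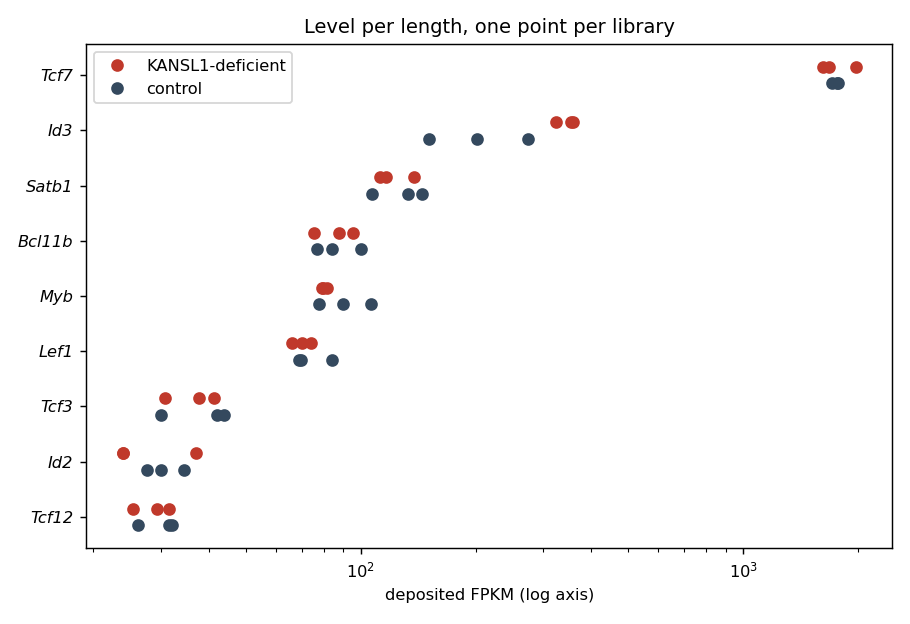
Deposited FPKM on a log x axis for each of the 9 genes, with 1 point per library and the KANSL1-deficient libraries above the control libraries of each gene. The 3 KANSL1-deficient points of Id3 (325 to 360 FPKM) lie right of its 3 control points (150 to 273 FPKM), and the points of the other 8 genes overlap between groups.

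Id3 (ENSMUSG00000007872, GRCm39 chr4:135870808-135873066, plus strand) was read at 693, 672 and 599.5 CPM in KANSL1-deficient libraries, against 252, 473 and 341 CPM in control libraries. Every KANSL1-deficient library was above every control library, and control replicate 1 was the lowest. The means were 655 ± 49.1 CPM in KANSL1-deficient and 356 ± 111 CPM in control libraries (SD, n = 3 each), so the control libraries were the more scattered. On the log2 scale the difference was 0.88 ± 0.19 (SE), a 1.84-fold difference with a 95% interval of 1.38 to 2.45 and an edgeR adjusted p of 0.0195. By exact permutation of the 6 CPM values, two-sided, p was 0.1, and no design with 3 libraries a group can give a lower one. Leaving out KANSL1-deficient replicate 1 gave an adjusted p of 0.0799, leaving out KANSL1-deficient replicate 2 gave 0.0772 and leaving out control replicate 3 gave 0.0569, and it was 0.0501 on log2(FPKM + 0.1) and 0.0649 with each library's abundance trend removed. Over all 16 alternatives the log2 fold change stayed between 0.63 and 1.12 with adjusted p-values from 1.08e-07 to 0.0799, and 11 passed. The mitosis markers given above were also higher in KANSL1-deficient libraries, and their part in the Id3 difference was not tested.

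**Figure D3:**
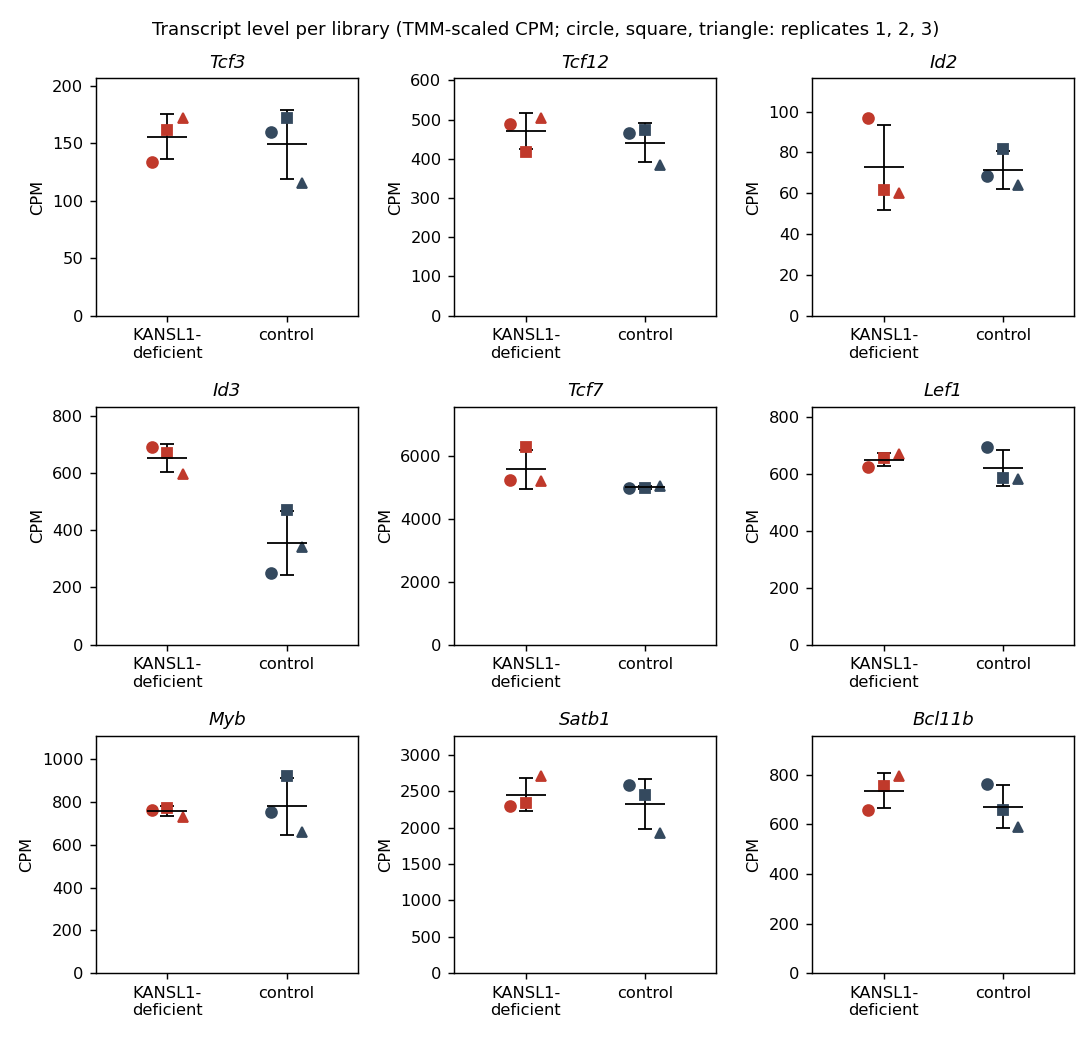
TMM-scaled CPM per library for each of the 9 genes, KANSL1-deficient beside control, with the mean as a line and the SD as a bar (n = 3 each) and each y axis starting at 0. Id3 shows no overlap between groups (599.5 to 693 CPM in KANSL1-deficient and 252 to 473 CPM in control libraries), and for Tcf3, Satb1 and Bcl11b control replicate 3, the triangle, is the lowest point.

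Id2 (ENSMUSG00000020644, GRCm39 chr12:25143798-25147139, minus strand), the other Id gene, was read at 96.9, 61.5 and 60.0 CPM in KANSL1-deficient libraries, against 68.7, 81.5 and 63.9 CPM in control libraries. The KANSL1-deficient group held both the highest library and the lowest. The log2 fold change was 0.03 ± 0.20 (SE; edgeR adjusted p = 0.956), and the 95% interval ran from 0.760-fold to 1.37-fold.

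Of the E protein genes, Tcf3 (ENSMUSG00000020167, GRCm39 chr10:80245348-80269481, minus strand) was read at 134, 161 and 172 CPM in KANSL1-deficient libraries, against 160, 172 and 115 CPM in control libraries. The spread within each group was wider than the gap between the means, which were 156 ± 19.8 CPM in KANSL1-deficient and 149 ± 29.7 CPM in control libraries (SD, n = 3 each). A log2 fold change of 0.06 ± 0.16 resulted (SE; edgeR adjusted p = 0.877; 95% interval 0.815-fold to 1.34-fold). Its partner Tcf12 (ENSMUSG00000032228, GRCm39 chr9:71749970-72019153, minus strand) was read at 490, 418 and 504 CPM in KANSL1-deficient libraries, against 466, 474 and 385 CPM in control libraries. The groups overlapped, and Tcf12 differed by 0.09 ± 0.13 on the log2 scale (SE; edgeR adjusted p = 0.749; 95% interval 0.878-fold to 1.29-fold).

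Because Id proteins act by pairing with E proteins, the balance of their transcripts was also described per library, with no test since Id3 is part of it. The summed FPKM of Id2 and Id3 over that of Tcf3 and Tcf12 was 6.60, 5.99 and 4.79 in KANSL1-deficient libraries, against 2.43, 4.07 and 4.06 in control libraries. The ratio averaged 5.79 ± 0.923 in KANSL1-deficient and 3.52 ± 0.944 in control libraries (SD, n = 3 each), 1.64-fold apart. The groups did not overlap, and 1.42-fold to 1.79-fold remained with any 1 library left out. Id3 over Id2 was 9.74, 14.9 and 13.6 in KANSL1-deficient libraries, against 5.001, 7.91 and 7.28 in control libraries, again without overlap. Tcf3 over Tcf12 averaged 1.28 ± 0.219 in KANSL1-deficient and 1.29 ± 0.123 in control libraries (SD, n = 3 each), and the groups overlapped. A ratio within a library does not depend on the scaling between libraries, but its level depends on the implied gene lengths.

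**Figure D4:**
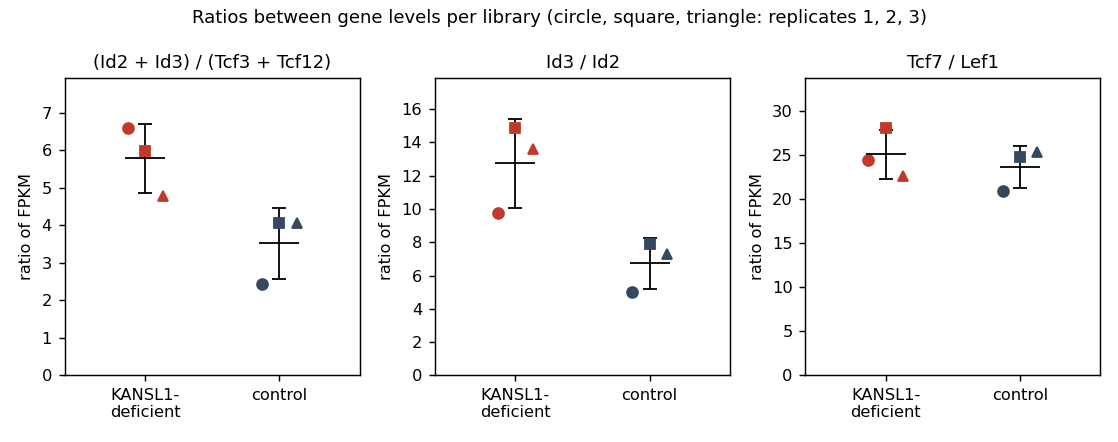
Ratios of FPKM per library on linear y axes from 0, for Id2 plus Id3 over Tcf3 plus Tcf12, Id3 over Id2, and Tcf7 over Lef1, KANSL1-deficient beside control, with the mean as a line and the SD as a bar (n = 3 each). The groups do not overlap in the ratios that hold Id3, and they overlap for Tcf7 over Lef1.

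Genes bound by or dependent on E proteins in mouse thymocytes were examined next. Of the 12 listed, all tested, 4 were higher past the threshold and 0 lower, with a median log2 fold change of 0.38 beside -0.02 over all tested genes. Of all tested genes 3.85% were higher, and of the 1536 most abundant 13.2%, with a median of 0.20. The same shares stand beside the counts of the lists below. With the abundance trend removed, 2 genes of the list were higher and its median was 0.26. Rag2, a subunit of the V(D)J recombinase, was read at 124, 177 and 135 CPM in KANSL1-deficient libraries, against 66.3, 68.7 and 82.4 CPM in control libraries (log2 fold change 1.00 ± 0.16 SE, edgeR adjusted p = 0.00647). Socs1, an inhibitor of cytokine signalling, differed by 0.68 ± 0.15 (adjusted p = 0.0229), and its relative Socs3 by 0.85 ± 0.19 (adjusted p = 0.0247). Dntt, the terminal transferase that adds bases at receptor joints, differed by 0.48 ± 0.12 (adjusted p = 0.0326). These are genes that E proteins are known to raise or to bind, while Id3 is known to oppose E proteins. E protein activity was not measured, and a link between Id3 and these genes was not tested. Rag1, the partner of Rag2, had a log2 fold change of 0.08 and did not pass, and Ptcra, which encodes the pre-T cell receptor alpha chain, had 0.63 (adjusted p = 0.0650). The count of 4 was 1 to 3 when a library was left out. Rag2 passed in all 16 alternatives. Socs1 missed the threshold without any 1 KANSL1-deficient library (adjusted p 0.0601 to 0.0881), Socs3 without any 1 library but control replicate 1 (0.0504 to 0.110), and Dntt without any 1 library but control replicate 3 (0.0717 to 0.151). On log2(FPKM + 1) and log2(FPKM + 0.1), Socs1 (0.0693 and 0.0718), Socs3 (0.0550 and 0.0576) and Dntt (0.129 and 0.124) also missed it, as did Dntt with library totals (0.0992). With the abundance trend removed, Socs1 had a log2 fold change of 0.45 (adjusted p = 0.101) and Dntt 0.15 (adjusted p = 0.528), and neither passed. Of 16 alternatives, Socs1 passed in 10, Socs3 in 9 and Dntt in 6.

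Other helix-loop-helix genes and E protein partners gave 1 higher and 0 lower gene among 9 tested of 14 listed, with a median of 0.11. The gene was Lmo4, a LIM-only adaptor, at 751, 685 and 648 CPM in KANSL1-deficient libraries, against 387, 502 and 440 CPM in control libraries (log2 fold change 0.65 ± 0.13 SE, edgeR adjusted p = 0.0136). Its adjusted p was 0.0703 and 0.0596 without KANSL1-deficient replicates 1 and 2, and with the abundance trend removed its log2 fold change was 0.39 (adjusted p = 0.0797). Lmo4 passed in 12 of 16 alternatives. Id1, a further Id gene, was far lower in level, at 18.7, 11.7 and 9.11 CPM in KANSL1-deficient libraries, against 9.09, 6.998 and 3.69 CPM in control libraries. Its groups did not overlap, and its log2 fold change of 1.00 ± 0.37 did not pass (adjusted p = 0.124). Tcf4, the remaining E protein gene, had -0.09 and did not pass.

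The T cell receptor to ERK and EGR response, known to induce Id3, gave 1 higher and 0 lower gene among 16 tested, with a median of -0.01. The gene was Cd5, a receptor that dampens T cell receptor signals, at 320, 334 and 249 CPM in KANSL1-deficient libraries, against 185, 194 and 234 CPM in control libraries (log2 fold change 0.56 ± 0.15 SE, edgeR adjusted p = 0.0421). Cd5 missed the threshold without KANSL1-deficient replicate 1 or 2 or control replicate 1 or 2 (adjusted p 0.111 to 0.175). It also missed with library totals (0.101), on log2(FPKM + 1) and log2(FPKM + 0.1) (0.137 and 0.139) and with the abundance trend removed (log2 fold change 0.36, adjusted p = 0.156), and it passed in 7 of 16 alternatives. Egr1 was read at 366, 130 and 193 CPM in KANSL1-deficient libraries, against 387, 355 and 354 CPM in control libraries. KANSL1-deficient replicate 1 lay within the control range and the other two lay below it, and the log2 fold change of -0.67 ± 0.28 did not pass (adjusted p = 0.173). Without KANSL1-deficient replicate 1 it was -1.18 with an adjusted p of 0.0191. Nr4a1, an early response gene, had 0.04, and Cd69, an early activation marker, had 0.53 (adjusted p = 0.0729).

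By the distance between their centred log2 CPM over the 6 libraries, the 3 protein-coding genes most like Id3 among 8699 candidates were Irf4, Igsf23 and H4c9. Irf4, a lymphocyte transcription factor, was read at 8.51, 7.82 and 6.91 CPM in KANSL1-deficient libraries, against 2.66, 5.02 and 4.05 CPM in control libraries (root mean square distance 0.0606). As for Id3, control replicate 1 was lowest and control replicate 2 the highest control, and Irf4 did not pass (log2 fold change 0.98, adjusted p = 0.0972). Igsf23, of the immunoglobulin superfamily, lay at a distance of 0.0895 and passed (log2 fold change 0.85, edgeR adjusted p = 0.0168; 0.0764 and 0.0741 without KANSL1-deficient replicates 1 and 2). H4c9, a histone H4 gene whose copies are near-identical and whose transcripts mostly lack poly(A), lay at 0.0953 and did not pass (adjusted p = 0.0782).

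Tcf7 (ENSMUSG00000000782, GRCm39 chr11:52143198-52174158, minus strand) was read at 5234, 6298 and 5207 CPM in KANSL1-deficient libraries, against 4989, 4987 and 5063 CPM in control libraries. KANSL1-deficient replicate 2 stood above the other 5 libraries, and the control libraries lay close together. The log2 fold change was 0.15 ± 0.11 (SE; edgeR adjusted p = 0.460; 95% interval 0.942-fold to 1.31-fold). The groups did not overlap in CPM but did in FPKM, with 1613, 1970 and 1672 in KANSL1-deficient libraries, against 1765, 1708 and 1767 in control libraries. Lef1 (ENSMUSG00000027985, GRCm39 chr3:130904120-131018005, plus strand) was read at 624, 654 and 670 CPM in KANSL1-deficient libraries, against 694, 586 and 583 CPM in control libraries. All 3 KANSL1-deficient values lay inside the control range, and Lef1 differed by 0.06 ± 0.12 on the log2 scale (SE; edgeR adjusted p = 0.816; 95% interval 0.878-fold to 1.25-fold). Tcf7 over Lef1 in FPKM averaged 25.03 ± 2.76 in KANSL1-deficient and 23.7 ± 2.39 in control libraries (SD, n = 3 each), and the groups overlapped.

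Beta-catenin, the TLE corepressors and other partners and targets of TCF-1 and LEF-1 gave 0 higher and 0 lower genes in edgeR among 15 tested of 17 listed, with 2 at an unadjusted p under 0.05 and 0 called by DESeq2. These 2 were Tcf7l2 (log2 fold change -0.43, edgeR adjusted p = 0.165) and Axin1 (-0.39, adjusted p = 0.173), both lower. Of the 15 tested genes, 5 had a log2 fold change above 0, and the median was -0.04. Ctnnb1, which encodes beta-catenin, had 0.24 (edgeR adjusted p = 0.526), and Axin2, a feedback inhibitor and known Wnt target, had -0.54 (adjusted p = 0.513).

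Myb (ENSMUSG00000019982, GRCm39 chr10:21000834-21036883, minus strand) was read at 763, 773 and 729 CPM in KANSL1-deficient libraries, against 753, 921 and 660 CPM in control libraries. All 3 KANSL1-deficient values again lay inside the control range. Its log2 fold change was -0.04 ± 0.13 (SE; edgeR adjusted p = 0.9004; 95% interval 0.795-fold to 1.18-fold). Of its relatives and genes known to depend on MYB, 3 were higher and 0 lower among 8 tested, with a median of 0.66. Over all tested genes 3.85% were higher, and 13.2% of the 1536 most abundant. Gata3, a factor of T cell and CD4 lineage development, was read at 258, 209 and 211 CPM in KANSL1-deficient libraries, against 131, 106 and 133 CPM in control libraries (log2 fold change 0.87 ± 0.14 SE, edgeR adjusted p = 0.00644). Myc, a regulator of cell growth, differed by 0.87 ± 0.21 (adjusted p = 0.0290) and missed the threshold without any 1 library but control replicate 2 (0.0589 to 0.130) and on log2(FPKM + 1) and log2(FPKM + 0.1) (0.0519 and 0.0545), passing in 8 of 16 alternatives. Ccnb1, a mitotic cyclin, was read at 29.2, 28.8 and 28.2 CPM in KANSL1-deficient libraries, against 8.51, 2.24 and 6.86 CPM in control libraries (log2 fold change 2.29 ± 0.38, edgeR adjusted p = 0.00647). Ccnb1 is also one of the 12 mitosis markers, all of which were higher. Bcl2l1, which encodes the survival factor BCL-xL, had 0.44 and did not pass (adjusted p = 0.0562).

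Satb1 (ENSMUSG00000023927, GRCm39 chr17:52043215-52140318, minus strand) was read at 2297, 2343 and 2710 CPM in KANSL1-deficient libraries, against 2577, 2453 and 1928 CPM in control libraries. The groups overlapped, with the lowest value in control replicate 3. Satb1 differed by 0.08 ± 0.13 on the log2 scale (SE; edgeR adjusted p = 0.793; 95% interval 0.867-fold to 1.29-fold). Genes known to depend on SATB1 had a median of 0.27, and of -0.06 with the abundance trend removed. Beside 3.85% higher over all tested genes and 13.2% of the 1536 most abundant, 2 of 7 tested were higher and 0 lower. They were Rag2, given above, and Bcl6, a transcriptional repressor, at 93.2, 97.5 and 83.7 CPM in KANSL1-deficient libraries, against 58.5, 43.2 and 45.3 CPM in control libraries (log2 fold change 0.90 ± 0.16 SE, edgeR adjusted p = 0.00848; 0.0505 without KANSL1-deficient replicate 2). Runx3, a factor of the CD8 lineage, had -0.69 with an adjusted p of 0.0522 and passed as lower with library totals, with the filter of 5 CPM, with DESeq2 and in both FPKM fits. The coreceptor genes Cd8a at 0.35 and Cd4 at 0.27 did not pass.

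The Satb1 locus also holds 5 provisional same-strand gene records of the class TEC, which marks transcript evidence still to be tested by experiment. Their summed CPM equalled 66.2, 82.0 and 85.0% of Satb1's in KANSL1-deficient libraries, against 97.4, 54.1 and 64.8% in control libraries. Tcf12 had 7 such records and Lef1 1, and 10 of these 13 were highest in control replicate 1. How reads were divided between these records and the genes was not tested, and the edgeR adjusted p-values of the 13 records lay between 0.154 and 0.930. Id3, Id2, Tcf3 and Bcl11b overlap no other gene in the table.

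Bcl11b (ENSMUSG00000048251, GRCm39 chr12:107876662-107969861, minus strand) was read at 657, 756 and 796 CPM in KANSL1-deficient libraries, against 763, 659 and 592 CPM in control libraries. The groups overlapped through KANSL1-deficient replicate 1 and control replicate 1. Bcl11b differed by 0.13 ± 0.13 on the log2 scale (SE; edgeR adjusted p = 0.607; 95% interval 0.903-fold to 1.33-fold). The NuRD complex, a chromatin remodeller that partners BCL11B, gave 1 higher and 0 lower gene among 13 tested, with a median of 0.21. The gene was Rbbp7, a histone-binding subunit, at 210, 281 and 242 CPM in KANSL1-deficient libraries, against 184, 139 and 157 CPM in control libraries (log2 fold change 0.61 ± 0.15 SE, edgeR adjusted p = 0.0314). Rbbp7 missed the threshold without any 1 library but control replicate 1 (adjusted p 0.0546 to 0.144). It also missed with library totals (0.0864), on log2(FPKM + 1) and log2(FPKM + 0.1) (0.116 and 0.118) and with the abundance trend removed (0.113), and it passed in 6 of 16 alternatives. Of 8 genes that BCL11B is known to hold down in mouse T cell precursors, only 2 had enough counts to test, Nfil3 and Kit, and 0 passed in edgeR (1 at an unadjusted p under 0.05, 1 by DESeq2). Nfil3, a factor of innate lymphocytes, was read at 48.0, 35.2 and 21.4 CPM in KANSL1-deficient libraries, against 19.2, 22.5 and 20.1 CPM in control libraries (log2 fold change 0.76, adjusted p = 0.1003). KANSL1-deficient replicate 3 lay within the control range, and Zbtb16, Il2rb, Ncr1 and Tyrobp were near 0 in all libraries.

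Other transcription factors of thymocytes gave 7 higher and 0 lower genes among 34 tested, with a median of 0.19 (3 to 6 higher with a library left out). Over all tested genes 3.85% were higher, and 13.2% of the 1536 most abundant. With the abundance trend removed, 4 genes of the list were higher and its median was 0.04. Besides Gata3 and Bcl6 above, Zbtb1, a zinc finger factor needed for T cell development, was read at 193, 183 and 146 CPM in KANSL1-deficient libraries, against 104, 83.3 and 83.9 CPM in control libraries (log2 fold change 0.95 ± 0.15 SE, edgeR adjusted p = 0.00613). Ikzf2, the Ikaros family gene for Helios, was read at 212, 198 and 195 CPM in KANSL1-deficient libraries, against 138, 114 and 113 CPM in control libraries (log2 fold change 0.73 ± 0.13 SE, edgeR adjusted p = 0.00829). For both genes the groups stood clear of each other, and of the 16 alternatives Ikzf2 missed only that on log2(FPKM + 0.1) (adjusted p = 0.0506). The others that passed were Elf1 (log2 fold change 0.60), Ikzf1 (0.43) and Ets1 (0.48). Elf1 passed in 11 of 16 alternatives, with an adjusted p of 0.0532 without KANSL1-deficient replicate 2, 0.0518 and 0.0524 on log2(FPKM + 1) and log2(FPKM + 0.1), and 0.0705 with the abundance trend removed. Ikzf1 missed the threshold without any 1 library (0.0613 to 0.133), and Ets1 without any 1 but control replicate 3 (0.0507 to 0.137). Both also missed with library totals (0.118 for Ikzf1 and 0.1004 for Ets1) and on log2(FPKM + 1) and log2(FPKM + 0.1) (0.128 to 0.150 over the 2 genes). With the abundance trend removed, the log2 fold change was 0.15 for Ikzf1 (adjusted p = 0.477) and 0.14 for Ets1 (adjusted p = 0.515). Ikzf1 passed in 5 of 16 alternatives and Ets1 in 6.

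Over the 9 lists together, which share members such as Gata3, Rag2 and Bcl6, 16 of 107 tested genes were higher (14.95%) and 0 lower, beside 3.85% and 2.91% of all tested genes. Among the 1536 most abundant tested genes, 203 (13.2%) were higher and 4 lower, so the share in the lists cannot be read as particular to them. Their median log2 fold change was 0.13, and at an unadjusted p under 0.05 there were 35 higher and 4 lower genes. The count of 16 was 8, 5 and 10 without KANSL1-deficient replicates 1, 2 and 3 and 10 without control replicate 2. It was 26 with DESeq2, 8 and 7 on log2(FPKM + 1) and log2(FPKM + 0.1), and 8 with the abundance trend removed. Rag2, Gata3, Zbtb1 and Ccnb1 passed in all 16 alternatives. The part of the mitosis markers in these counts was not tested.

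**Figure D5:**
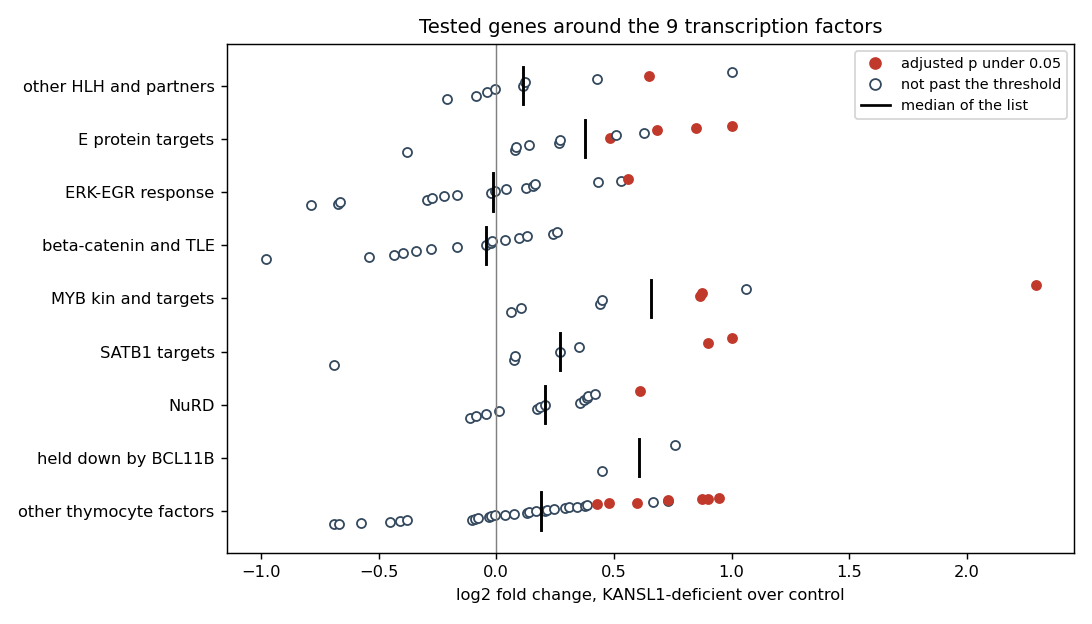
Log2 fold change of each tested gene in 9 lists of relatives, partners and known targets on the x axis, KANSL1-deficient over control, with filled points for adjusted p under 0.05 and a vertical bar for the median of the list. Filled points lie right of 0 in every list that has any, and the lists of beta-catenin partners and of genes held down by BCL11B have 0.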

How the data were processed

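Polyadenylated RNA of sorted double-positive thymocytes was measured in 3 KANSL1-deficient and 3 control mice, grouped by the sample labels. The labels number separate mice in each group. Per the submitters' processing notes, the tools were STAR, featureCounts and DESeq2 and the build GRCm39. Not given in the sources used here are tool versions and any strand setting. The authors deposited raw read counts per gene and FPKM values, whose implied gene lengths were the same in all libraries. The authors' own comparison holds, per the file headers, the fold change of each gene (KANSL1-deficient over control, a ratio), its log2, its p-value and adjusted p-value, and a mean normalized signal. It was used only for values named as such.

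The counts were tested with edgeR 4.0.16 under R 4.3.3 (quasi-likelihood test, TMM scaling, filterByExpr with minimum count 10 and minimum total 15, robust dispersion), with Benjamini-Hochberg adjustment over 15353 genes at 0.05. Standard errors are the log2 fold change over the square root of F. CPM are TMM-scaled. Other settings tried were scaling by median of ratios or by library totals, no filter, at least 5 CPM in 3 libraries, DESeq2 1.42.0, limma-voom 3.58.1, limma on log2 of FPKM plus 1 or 0.1, replicate number as a block, removal of each library's abundance trend (lowess, span 0.3) and each library left out. The test was checked on simulated data. No library was within counting noise of another.

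The 9 genes, the 9 lists of relatives and targets, the marker lists and the tests were chosen with earlier results of these data known, so lists are described by counts and medians and have no test of their own. Named genes were the 9 genes, Kansl1, up to 4 members of each list with the smallest p among those past the threshold, and the 3 protein-coding genes with at least 5 CPM closest to each called gene by root mean square distance of centred log2 CPM (0.5 added). A few other genes, such as Id1, Egr1, Runx3 and Nfil3, were named after their values were seen. Gene coordinates are those of the deposited table (GRCm39). Promoter windows are from RefSeq (GRCm38.p6) and matched all 9 genes by symbol.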

Additional observations from a re-analysis of the deposited data

How the results depend on the processing

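Id3 kept its direction in all 16 alternatives and passed in 11, and the other 8 genes passed in 0. The count of called genes among the 9 was 0 on log2(FPKM + 0.1) and with the abundance trend removed, and 0 to 1 with a library left out. Over all genes, the count of 1038 was 1729 with no filter, 2009 with DESeq2 and 283 to 811 with a library left out (283, 305 and 525 without KANSL1-deficient replicates 1, 2 and 3, and 339 without control replicate 2). Over the 9 lists, the count of 16 was 26 with DESeq2, 8 on log2(FPKM + 1), 7 on log2(FPKM + 0.1), 8 with the abundance trend removed and 5 to 13 with a library left out. Fold changes near 0 changed sign. With library totals the log2 fold changes were -0.0832 for Tcf3, -0.0572 for Tcf12, -0.12 for Id2, -0.0866 for Lef1, -0.0693 for Satb1 and -0.0156 for Bcl11b. On log2(FPKM + 1) they were -0.0718 for Tcf3, -0.0545 for Tcf12, -0.14 for Id2, -9.82e-04 for Tcf7, -0.0804 for Lef1, -0.0628 for Satb1 and -0.0128 for Bcl11b. On log2(FPKM + 0.1) they were -0.0733 for Tcf3, -0.0562 for Tcf12, -0.15 for Id2, -9.85e-04 for Tcf7, -0.0814 for Lef1, -0.0632 for Satb1 and -0.0129 for Bcl11b. With the abundance trend removed they were -0.0758 for Tcf3, -0.16 for Tcf12, -0.00236 for Id2, -0.21 for Tcf7, -0.21 for Lef1, -0.25 for Satb1 and -0.14 for Bcl11b. With limma-voom Id2 was at -7.31e-04. With a library left out they ran from -0.0967 to 0.16 for Tcf3, -0.00383 to 0.17 for Tcf12, -0.23 to 0.16 for Id2, -0.16 to 0.0756 for Myb and -0.0444 to 0.15 for Satb1. The causes of these moves were not tested. FPKM carries the library-total scale, as the implied lengths show.

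The replicate numbers are not stated to mark a shared litter or day. Deviations of same-numbered libraries correlated at -0.07, -0.03 and -0.14, beside -0.06 to 0.12 between differently numbered libraries of the 2 groups. With 3 libraries a group, these values cannot show whether the numbers pair the samples. With replicate number as a block, 406 genes passed over all genes, 8 over the 9 lists and 1 of the 9 genes (Id3, log2 fold change 0.92, adjusted p = 0.0358). Dntt, Lmo4, Rbbp7, Cd5, Myc, Elf1, Ikzf1 and Ets1 did not pass with the block (adjusted p 0.0548 to 0.125). Of the 8 neighbouring pairs in the order of levels, 4 stood clear of each other in FPKM, 3 in CPM per length, and 4 to 5 with a library left out. With 3 libraries a group that differ by more than counting noise, precision is limited by the number of libraries.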

Other observations

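In the deposited table, the protein family name given to Tcf12, Id2 and Id3 was HLH, and that of Tcf3 was DUF4679, a domain of unknown function. Tcf7 and Lef1 shared the family name CTNNB1_binding.

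C230085N15Rik, the most abundant provisional record inside Satb1, was read at 1024, 1375 and 1547 CPM in KANSL1-deficient libraries, against 1704, 847 and 854 CPM in control libraries. Its log2 fold change was 0.21 ± 0.24 (SE; edgeR adjusted p = 0.680), and control replicate 1 was its highest library and the lowest library for Id3.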
